A study of Canis lupus familiaris with 4 samples.

Results

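The genes described here build and run the mitotic spindle. They are 60 canine genes for entry into mitosis, the spindle checkpoint, anaphase, the centromere and kinetochore, the chromosomal passenger complex, spindle motors, cytokinesis and mitotic chromosome structure. A gene was taken up when a probe of the array carried its symbol as gene name or gave it in brackets in the probe description. This found 53 of the 60 genes, through 78 of the 43603 gene probes, which carry 34522 distinct gene names, and all 78 passed the filter on dim probes. The symbols MKI67, CCNB1, CENPE, CENPH, KIF20A, HMMR and CKS1B were not found in this way.

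The cells came from 2 dog mammary tumour cell lines, which are called P114 and CMT-U27. From each line a rare fraction positive for Sca1, EpCAM and CD44 was sorted by flow cytometry, and these stem-like cells were labelled day 3. They were grown alone, called single culture here, or with tumour-associated macrophages, called co-culture. RNA of both cultures of a line was set against each other on 2-colour Agilent arrays, 2 arrays a line with the dyes exchanged, which gave 4 arrays and 8 channels. The labels call the arrays biological replicates, but nothing states that they came from separate cultures. The p-values therefore cannot be read as measuring the spread between cultures. The labels do not say whether macrophages were removed before RNA was taken, from which animals they came, or how the sorted fraction differed from the unsorted line, which was not analysed here.

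In a dividing cell, CDK1 bound to A- and B-type cyclins starts mitosis, and FOXM1 drives transcription of many genes that act in it. Kinetochores assemble on centromeres and bind spindle microtubules, while BUB1, BUB1B, BUB3, MAD2L1 and TTK hold back anaphase until every chromosome is attached. CDC20 then activates the anaphase-promoting complex (APC/C), which marks cyclin B and securin (PTTG1) for destruction and so frees separase (ESPL1) to cut cohesin. These transcripts are made mostly late in the cell cycle, and in tumour tissue their summed level is commonly read as a measure of proliferation. In RNA from a whole culture, fewer cells of a type and less RNA per cell cannot be told apart.

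The probes on which the findings turn are 60 bases long. They are given as deposited, 5′ to 3′, in lower case with no part singled out, with the position on CanFam3.1 that the array design gives. PLK1, CDC20 and PTTG1 are shown because their co-culture ratios were among the highest and lowest of the set, and the other probes because they differed between the lines. PLK1 lies on the minus strand of chr6:22165785-22166098, CDC20 on the minus strand of chr15:16803858-16803917 and PTTG1 on the minus strand of chr4:50301938-50301997. CENPF lies on the plus strand of chr7:12611011-12612549, NDC80 on the plus strand of chr7:69300609-69304286 and CDC25C on the minus strand of chr11:25904634-25904894. For CCNB2 a probe on the plus strand of chr30:24054067-24054410 is printed, and for FOXM1 one on the plus strand of chr27:41904544-41904603. These 2 are not the brightest of their gene. A span longer than the probe means that its bases are placed in separated blocks.
PLK1: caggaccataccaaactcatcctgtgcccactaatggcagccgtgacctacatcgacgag
CDC20: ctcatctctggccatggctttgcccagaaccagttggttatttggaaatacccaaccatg
PTTG1: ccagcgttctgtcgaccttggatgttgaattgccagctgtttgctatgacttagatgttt
CENPF: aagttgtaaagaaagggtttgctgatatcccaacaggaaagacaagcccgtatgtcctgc
NDC80: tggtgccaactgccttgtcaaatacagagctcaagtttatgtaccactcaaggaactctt
CDC25C: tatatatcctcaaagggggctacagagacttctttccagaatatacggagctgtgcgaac
CCNB2: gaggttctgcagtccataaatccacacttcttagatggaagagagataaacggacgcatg
FOXM1: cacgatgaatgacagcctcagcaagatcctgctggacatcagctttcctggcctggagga

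Ratios are log2 values of co-culture over single culture within an array, after loess normalization, so each is relative to probes of the same brightness on that array. A gene is represented by its brightest probe. P114 replicate 1 had 89.4% and 91.7% of its spots well above background in Cy3 and Cy5, against 57.9% to 65.7% in the channels of the other arrays, and no spot was saturated. The co-culture RNA was in Cy3 on P114 replicate 1 and CMT-U27 replicate 2 and in Cy5 on the other pair. Over the 28692 tested probes the ratios of the P114 arrays correlated at r = -0.149 and those of the CMT-U27 arrays at r = 0.0529, a description across probes. Over the 53 genes of the set r was -0.193 in P114 and -0.0396 in CMT-U27. Differences from gene to gene within the set thus did not repeat between the arrays of a line. All arrays lay on 1 slide, with the P114 arrays in scan 1 and the CMT-U27 arrays in scan 2, so scan and line cannot be told apart.

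In P114, mitotic genes tended to lie above 0 in co-culture, by amounts that did not pass the test. The median ratio of the 53 genes was 0.15, against 0.01 over all tested probes and 0.01 over the brightest 20% of them, and 48 of the 53 were above 0. At an unadjusted p under 0.05, 17 genes (32.1%) were higher, against 3.79% of all tested probes and 4.65% of the brightest 20%, and 0 were lower, against 2.34%. By limma with Benjamini-Hochberg adjustment over all tested probes, 0 genes and 0% of all probes passed, and the smallest adjusted p of the set was 0.797. On single arrays the median ratio of the set was 0.18 on P114 replicate 1 and 0.17 on P114 replicate 2, against 0.02 and -0.00 over all tested probes. The genes were above 0 on both P114 arrays in 29 cases (54.7%), against 25.1% of tested probes, and 21 had opposite signs on the arrays. AURKA and PRC1 were among these 21, although their unadjusted p was under 0.05.

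In CMT-U27 the shift was smaller. The median ratio was 0.07, against 0.02 over all tested probes and 0.04 over the brightest 20%, with 41 of 53 genes above 0. At an unadjusted p under 0.05, CDC20 was higher and PTTG1 lower, 1.89% of the set each, against 2.31% and 0.924% of all tested probes. No gene and 0% of all probes passed the adjusted test with loess normalization. With each array centred on its median instead, the median over all probes moved to 0.68 and that of the set to 1.40, and 52 of the 53 genes and 17343 of all probes passed. Above 0 on both CMT-U27 arrays were 28 genes (52.8%), against 37.4% of tested probes. Above 0 on all 4 arrays were 18 genes (34.0%), against 11% of all tested probes and 8.33% of the brightest 20%.

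For the mean of both lines the median over the set was 0.11, against 0.02 over all tested probes. At an unadjusted p under 0.05, 18 genes (34.0%) were higher, against 5.02% of tested probes and 5.45% of the brightest 20%, and 0 were lower, against 1.53%. The smallest adjusted p was 0.756.

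**Figure D1:**
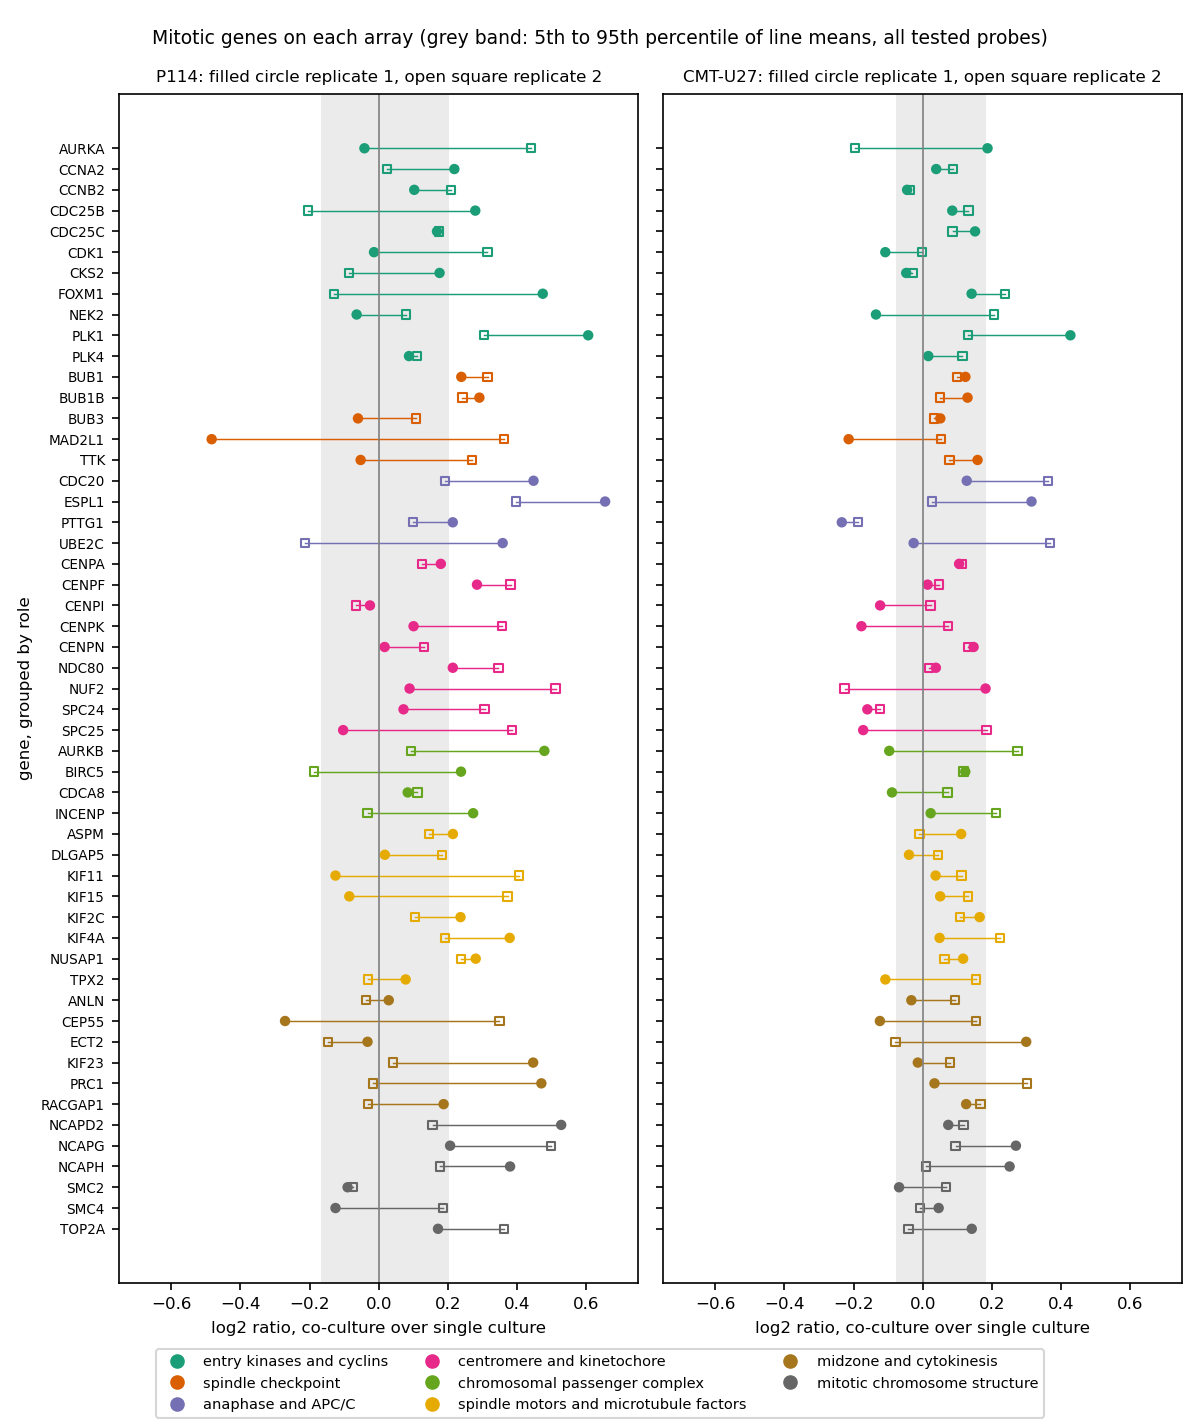
Log2 ratio of co-culture over single culture for the 53 mitotic genes on each array (P114 left, CMT-U27 right; filled circle replicate 1, open square replicate 2, joined by a line; colours by role; grey, 5th to 95th percentile of line means over all tested probes). Most P114 points lie to the right of 0, the CMT-U27 points lie closer to 0, and 21 genes in P114 and 20 in CMT-U27 have points on both sides of 0.

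Among the kinases, cyclins and other genes of mitotic entry, PLK1 had the highest mean ratio over both lines of all 53 genes. PLK1 encodes a kinase of centrosome maturation and spindle assembly. Its ratio was 0.61 and 0.30 on the P114 arrays and 0.43 and 0.13 on the CMT-U27 arrays. It was above 0 on every array, and the higher array had the co-culture in Cy3 in P114 and in Cy5 in CMT-U27. The mean was 0.46 ± 0.21 in P114 (SD, n = 2; limma adjusted p = 0.797, unadjusted under 0.05) and 0.28 ± 0.21 in CMT-U27 (SD, n = 2; adjusted p = 1).

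CDK1, the kinase that starts mitosis, had ratios of -0.01 and 0.31 in P114 and of -0.11 and -0.00 in CMT-U27. One P114 array stood above the other 3, which lay at or below 0. FOXM1, the transcription factor of late cell cycle genes, had ratios of 0.47 and -0.13 in P114 and of 0.14 and 0.24 in CMT-U27. Its P114 arrays disagreed in sign at this probe, while its dimmer probe was at 0.22 and 0.35 there and at 0.23 and 0.17 in CMT-U27. AURKA, a kinase of centrosomes and spindle poles, had ratios of -0.04 and 0.44 in P114 and of 0.19 and -0.20 in CMT-U27, so both lines held arrays of opposite sign. At its other 2 probes the ratios lay between 0.11 and 0.29 in P114.

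CDC25C, a phosphatase that activates CDK1, gave nearly equal ratios on both P114 arrays, 0.17 and 0.17, and 0.15 and 0.09 in CMT-U27. CCNA2, an A-type cyclin, was also above 0 on all 4 arrays, at 0.02 to 0.22, and so was PLK4, a kinase of centriole duplication, at 0.02 to 0.11. CCNB2, a B-type cyclin, was at 0.10 and 0.21 in P114 and at -0.05 and -0.04 in CMT-U27. For CCNB2 the lines lay on opposite sides of 0, a pattern of 3 genes taken up again with the difference between the lines. Over its 3 probes the mean CMT-U27 ratio ranged from -0.04 to 0.05. The other genes of this group, CDC25B, CKS2 and NEK2, had mean ratios of 0.01 to 0.05 in P114, and each had P114 arrays of opposite sign. The group's median was 0.15 in P114 and 0.06 in CMT-U27. Of its 11 genes 2 (18.2%), PLK1 and AURKA, were higher at an unadjusted p under 0.05 in P114, against 3.79% of tested probes.

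MKI67, a widely used marker of cycling cells whose protein coats mitotic chromosomes, was not listed by its symbol. A tested probe whose description spells out its name gave ratios of 0.09 and -0.11 in P114 and of 0.04 and -0.11 in CMT-U27. At this probe both lines had 1 array above and 1 below 0. Another MKI67 probe was not tested because its spot was marked on P114 replicate 1. Its ratio was 0.15 on P114 replicate 2 and 0.07 and 0.05 on the CMT-U27 arrays, all above 0. Of the other absent symbols, CENPE, CENPH, HMMR, KIF20A and CKS1B had probes with such descriptions too, which stay outside the set. CCNB1 had none.

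Of the spindle checkpoint genes, BUB1 and BUB1B lay above 0 on all 4 arrays. BUB1, a kinase that recruits checkpoint proteins to the kinetochore, had ratios of 0.24 and 0.31 in P114 and of 0.12 and 0.10 in CMT-U27. BUB1B, which encodes BUBR1, an inhibitor of the APC/C, had ratios of 0.29 and 0.24 in P114 and of 0.13 and 0.05 in CMT-U27. For both genes each P114 array was above each CMT-U27 array. The means in P114 were 0.28 ± 0.05 for BUB1 and 0.27 ± 0.03 for BUB1B (SD, n = 2; limma adjusted p = 0.797 each, unadjusted under 0.05). TTK, the kinase that starts checkpoint signalling, averaged 0.11 ± 0.23 in P114 and 0.12 ± 0.06 in CMT-U27. BUB3, a partner of both BUB proteins, averaged 0.02 ± 0.12 and 0.04 ± 0.01.

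MAD2L1, which binds and holds CDC20, varied most of all 53 genes in P114, with ratios of -0.48 and 0.36. It was at -0.21 and 0.05 in CMT-U27. The array design places its only probe over 24 bases of the assembly, so its match to the gene is uncertain.

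**Figure D2:**
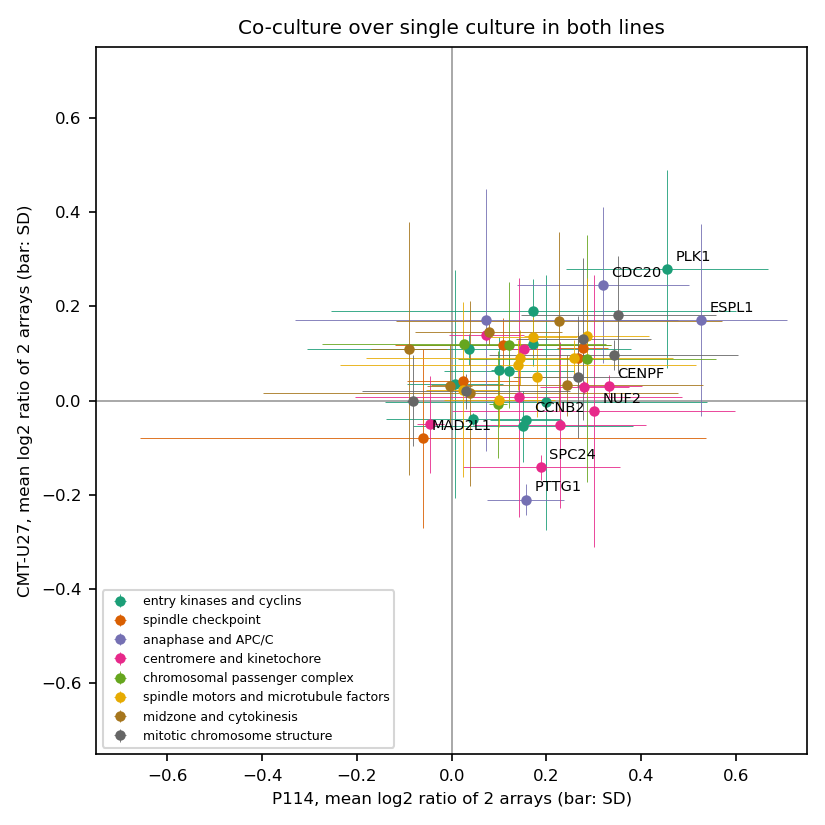
Mean log2 ratio of co-culture over single culture in P114 (horizontal) and CMT-U27 (vertical) for the 53 genes, with bars for the SD of 2 arrays and colours by role. ESPL1 lies farthest right at 0.53, PLK1 lies highest at 0.28, and PTTG1, SPC24 and CCNB2 lie right of 0 and below 0.

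Among the anaphase genes, ESPL1, which encodes separase, had ratios of 0.65 and 0.40 in P114 and of 0.31 and 0.03 in CMT-U27. It was above 0 on every array, and its P114 mean of 0.53 ± 0.18 was the highest of the set (SD, n = 2; limma adjusted p = 0.797, unadjusted under 0.05). CDC20, the activator of the APC/C, had ratios of 0.45 and 0.19 in P114 and of 0.13 and 0.36 in CMT-U27. The lines overlapped, all 4 values were above 0, and CDC20 had the smallest unadjusted p of the set for the mean of both lines (mean ratio 0.28, limma adjusted p = 0.756).

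PTTG1, the securin that holds separase inactive, did not follow them. Its ratios were 0.21 and 0.10 in P114 and -0.23 and -0.19 in CMT-U27. Both P114 arrays were above and both CMT-U27 arrays below 0, and the CMT-U27 mean was -0.21 ± 0.03 (SD, n = 2; limma adjusted p = 1, unadjusted under 0.05). UBE2C, the ubiquitin-conjugating enzyme of the APC/C, had ratios of 0.36 and -0.21 in P114 and of -0.03 and 0.37 in CMT-U27. Each line had 1 array above and 1 below 0.

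At the centromere and kinetochore, 7 of 9 genes (77.8%) were above 0 on both P114 arrays, against 25.1% of tested probes, and 4 (44.4%) on both CMT-U27 arrays, close to the 37.4% of tested probes. CENPF, a large kinetochore and dynein-linked protein, had ratios of 0.28 and 0.38 in P114 and of 0.01 and 0.05 in CMT-U27. NDC80, the microtubule-binding arm of the kinetochore, had ratios of 0.21 and 0.35 in P114 and of 0.04 and 0.02 in CMT-U27. For both genes the lines did not overlap and all 4 values were above 0. The P114 means were 0.33 ± 0.07 for CENPF and 0.28 ± 0.09 for NDC80 (SD, n = 2; limma adjusted p = 0.797 each, unadjusted under 0.05).

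NUF2, SPC24 and SPC25 are the partners of NDC80 in one complex. NUF2 was at 0.09 and 0.51 in P114 and at 0.18 and -0.23 in CMT-U27, so its lines overlapped. SPC24 was at 0.07 and 0.31 in P114 and at -0.16 and -0.12 in CMT-U27, with no overlap. SPC25 was at -0.10 and 0.39 in P114 and at -0.17 and 0.18 in CMT-U27. The 4 subunits had mean ratios of 0.14 to 0.30 in P114 and of -0.14 to 0.03 in CMT-U27. CENPA, the histone variant that marks the centromere, was above 0 on every array, at 0.11 to 0.18. CENPN, which binds CENPA nucleosomes, was above 0 on every array too, at 0.02 to 0.15. CENPK was at 0.10 and 0.36 in P114 and at -0.18 and 0.07 in CMT-U27. CENPI, a further protein of the constitutive centromere network, was below 0 on 3 of 4 arrays.

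In the chromosomal passenger complex no gene was above 0 on all 4 arrays. AURKB, its kinase, had ratios of 0.48 and 0.09 in P114 and of -0.10 and 0.27 in CMT-U27. In both lines the array with the co-culture in Cy3 was the higher. The P114 mean was 0.29 ± 0.27 (SD, n = 2; limma adjusted p = 0.797, unadjusted under 0.05). Its dimmer probe was at 0.40 and 0.20 in P114 and at 0.15 and 0.08 in CMT-U27. INCENP, the scaffold of the complex, averaged 0.12 ± 0.22 in P114 and 0.12 ± 0.13 in CMT-U27. BIRC5, which encodes survivin, averaged 0.03 ± 0.30 and 0.12 ± 0.00, and CDCA8, which encodes borealin, 0.10 ± 0.02 and -0.01 ± 0.11.

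The ratios were also set against the dye. In 29 of the 53 genes the difference between the Cy5 and Cy3 arrays had the same sign in both lines, 11 of them higher with the co-culture in Cy5 and 18 with it in Cy3. Over all tested probes the sign was shared by 56.1%, a slightly larger share, so the set did not stand out in this. The fit holds a dye term for every probe, which leaves 1 residual degree of freedom beside 2.76 from the prior. That residual is how far the dye difference disagrees between the lines. A small p therefore does not show that the arrays of a line agree. AURKA and PRC1 had an unadjusted p under 0.05 in P114 with ratios of opposite sign on its arrays. For AURKB, NUF2, KIF23 and NCAPD2 the p was under 0.05 too, with ratios that differed widely between the P114 arrays.

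Among the motors and microtubule factors all 8 genes had mean ratios above 0 in both lines. NUSAP1, which bundles spindle microtubules, had ratios of 0.28 and 0.24 in P114 and of 0.12 and 0.06 in CMT-U27. KIF4A, a chromosome-bound kinesin, had ratios of 0.38 and 0.19 in P114 and of 0.05 and 0.22 in CMT-U27. KIF2C, a kinesin that takes microtubules apart at kinetochores, had ratios of 0.24 and 0.11 in P114 and of 0.16 and 0.11 in CMT-U27. Over its 3 probes the mean ratio ranged from -0.02 to 0.17 in P114 and from -0.01 to 0.14 in CMT-U27. At their brightest probe NUSAP1, KIF4A and KIF2C were above 0 on all 4 arrays. NUSAP1 and KIF4A had an unadjusted p under 0.05 in P114 (limma adjusted p = 0.797 each). KIF11 and KIF15, kinesins that hold the spindle poles apart, were below 0 on P114 replicate 1, at -0.13 and -0.09, and at 0.41 and 0.37 on replicate 2. ASPM, a spindle pole protein, averaged 0.18 ± 0.05 in P114, DLGAP5 0.10 ± 0.12 and TPX2, an activator of AURKA, 0.02 ± 0.08. A dimmer TPX2 probe averaged 0.27 in P114.

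The 6 cytokinesis genes had a median ratio of 0.06 in P114, the lowest of the 8 role groups there, and of 0.07 in CMT-U27, and 0 of them were above 0 on all 4 arrays. KIF23, the kinesin of the central spindle, had ratios of 0.45 and 0.04 in P114 and of -0.01 and 0.08 in CMT-U27. PRC1, which bundles midzone microtubules, had ratios of 0.47 and -0.02 in P114 and of 0.03 and 0.30 in CMT-U27. For both genes a single P114 array carried the mean. RACGAP1, ECT2, ANLN and CEP55, which act at the cleavage furrow and midbody, had P114 means of -0.09 to 0.08.

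Of the genes of mitotic chromosome structure, 3 of 6 were above 0 on all 4 arrays, all of them condensin I subunits. NCAPG had ratios of 0.21 and 0.50 in P114 and of 0.27 and 0.10 in CMT-U27, and its P114 mean was 0.35 ± 0.21 (SD, n = 2; limma adjusted p = 0.797, unadjusted under 0.05). NCAPD2 had ratios of 0.53 and 0.16 in P114 and of 0.07 and 0.12 in CMT-U27. NCAPH had ratios of 0.38 and 0.18 in P114 and of 0.25 and 0.01 in CMT-U27. For NCAPD2 the lines did not overlap, while for NCAPG and NCAPH they did. SMC2 and SMC4, the ATPase subunits shared by condensin I and II, averaged -0.08 ± 0.01 and 0.03 ± 0.22 in P114. TOP2A, the topoisomerase that untangles sister chromatids, had ratios of 0.17 and 0.36 in P114 and of 0.14 and -0.04 in CMT-U27.

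Other cell cycle lists were counted in P114 at an unadjusted p under 0.05, where 3.79% of all tested probes were higher and 2.34% lower. Of 23 further kinetochore and centromere genes, 4 (17.4%) were higher and 0 lower, and their median was 0.11. Among 32 further spindle, centrosome and entry genes (median 0.12) 7 (21.9%) lay higher and 1 (3.12%) lower. Among 33 DNA replication genes (median 0.16) 7 (21.2%) lay higher and 0 lower, and MCM2, a subunit of the replicative helicase, had a mean ratio of 0.53 ± 0.28. Of 13 cohesin and condensin II genes 4 (30.8%) were higher, and of 15 further APC/C and mitotic exit genes 0 passed in either direction, with a median of 0.02. Of 9 cell cycle arrest genes 2 (22.2%) were lower, CDKN1A at -0.39 ± 0.18 and CCNG1 at -0.31 ± 0.21 (SD, n = 2). None of these genes passed the adjusted test in P114.

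**Figure D3:**
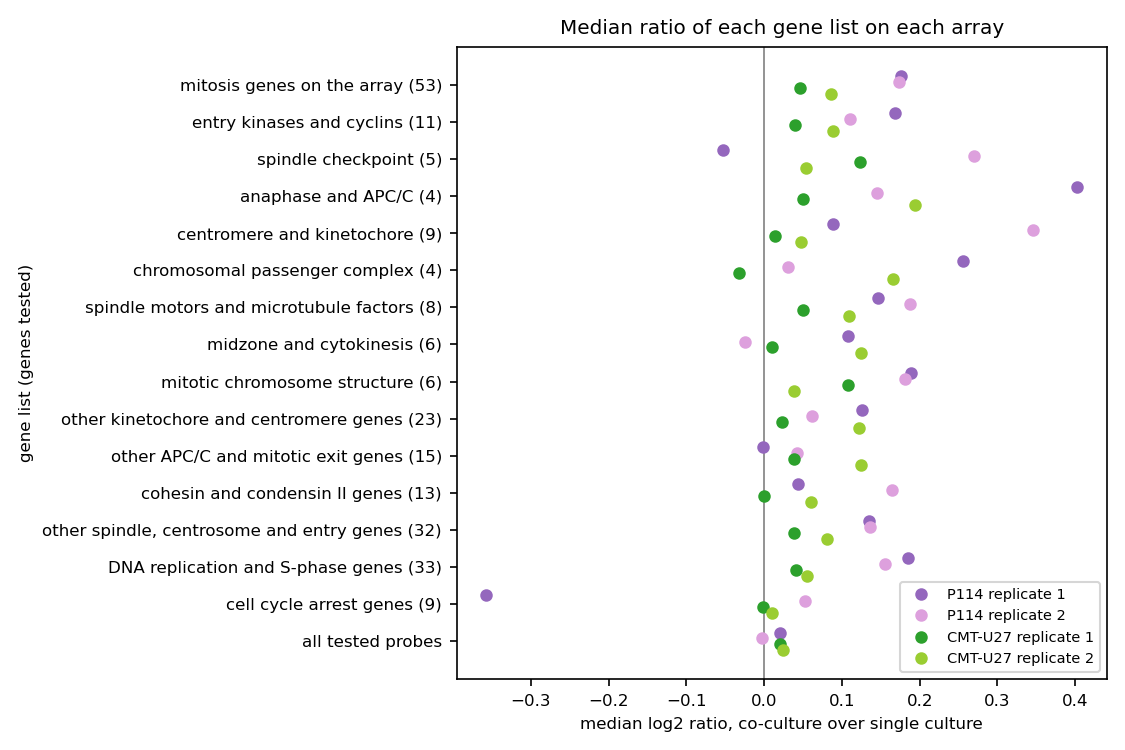
Median log2 ratio of co-culture over single culture on each array for the 53 mitotic genes, their role groups, other cell cycle lists and all tested probes, with the number of genes tested in brackets. The 53 genes lie at 0.18 and 0.17 on the P114 arrays and at 0.05 and 0.09 on the CMT-U27 arrays, and all tested probes lie between -0.00 and 0.02.

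Macrophage markers were set beside these ratios. Of 20 macrophage genes on the array 5 were tested (CD14, CD163, CD68, CD86 and CTSS), and the remaining 15, CSF1R, PTPRC and AIF1 among them, were not well above background on both arrays of any culture. The median level of the 5 was 7.62 and 7.91 in P114 single culture and 7.77 and 7.84 in co-culture, and 7.04 and 7.14 in CMT-U27 single culture and 7.03 and 7.14 in co-culture. Their median ratio was -0.02 in P114 and 0.01 in CMT-U27, and 0 of 5 were above 0 on both P114 arrays. The P114 ratios ranged from -0.35 to 0.04, and 1 of 5 (20%) was lower at an unadjusted p under 0.05, against 2.34% of tested probes. In single culture 1 of 5 (20%) was higher in P114 than in CMT-U27 at a limma adjusted p under 0.05, against 6.97% of tested probes. Of the 8 epithelial and sort genes, 5 (62.5%) were below 0 on both P114 arrays, against 18.2% of tested probes, and their median ratio was -0.16 in P114 and 0.01 in CMT-U27. At an unadjusted p under 0.05, KRT5 and KRT18 were lower in P114 and CD44 higher, with mean ratios of -0.53 ± 0.38, -0.26 ± 0.09 and 0.20 ± 0.30 (SD, n = 2; limma adjusted p = 0.797 each). Their median level in P114 was 10.92 and 10.90 in single culture and 10.82 and 10.50 in co-culture. The part of either marker list in the ratios of the mitotic genes was not tested.

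The response of the lines was compared directly, as CMT-U27 minus P114. The median difference over the 53 genes was -0.07, against 0.01 over all tested probes, and 41 of 53 were below 0, with loess normalization. With each array centred on its median instead, the sign turned: the median over the 53 genes was 0.81, and over all probes it was 0.51. At an unadjusted p under 0.05, 4 genes were lower in CMT-U27 (PTTG1, CENPF, NUF2 and SPC24), against 0.802% of tested probes, and 0 were higher, against 2.06%. The differences were -0.37 ± 0.09 for PTTG1, -0.30 ± 0.09 for CENPF, -0.32 ± 0.09 for NUF2 and -0.33 ± 0.11 for SPC24 (SE; limma adjusted p = 1 each). PTTG1, SPC24 and CCNB2 were above 0 on both P114 arrays and below 0 on both CMT-U27 arrays. This was 5.66% of the set, against 2.96% of tested probes. For CCNB2 the CMT-U27 sign differed between its probes, so the pattern is that of its brightest probe. The opposite pattern was seen in 0 genes, against 5.76% of tested probes. No gene passed the adjusted test of the difference with loess.

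The clearest differences were between the lines themselves. In single culture 12 of the 53 genes (22.6%) were lower in P114 than in CMT-U27 by limma's separate-channel fit at an adjusted p under 0.05, against 8.23% of all tested probes and 11.3% of the brightest 20%. They were NCAPH, PTTG1, FOXM1, BUB1, CENPF, SPC24, NDC80, CCNB2, BUB1B, CDC25C, NUSAP1 and CCNA2. One gene, NUF2, was higher in P114 (1.89%, against 6.97% of tested probes). The median difference over the 53 genes was -0.37 on the log2 scale, against -0.03 over all tested probes. With median centring in place of loess it was 0.08, against 0.09 over all probes, and 6 genes passed, of which CENPF, NCAPH and NUF2 passed with loess too. The balance turned with it: BUB3, CENPA, DLGAP5 and NUF2 were higher in P114 and CENPF and NCAPH lower, against 13.8% of all probes higher and 3.46% lower. With the scanner software's processed signals 4 genes passed. Without the dye term and with all arrays kept, 26 genes passed, and NUF2 no longer did (limma adjusted p = 0.0549). Arrays were left out together with the dye term, so these counts are read against the 26: 24 genes passed without P114 replicate 1, 31 without P114 replicate 2, 13 without CMT-U27 replicate 1 and 12 without CMT-U27 replicate 2. NUF2 passed in that form only without P114 replicate 2, and BUB1B and CCNA2 did not pass without CMT-U27 replicate 2. The lines were never on 1 array, and they differ in scan, so every value rests on levels compared between arrays. In P114 the 4 channels were all below the 4 CMT-U27 channels, both cultures included, for 27 genes (50.9%). This was against 29.2% of tested probes and 32.6% of the brightest 20%. They were all above for 7 genes (13.2%), against 24.9% and 31.2%. In the single-culture channels alone P114 lay below CMT-U27 for 32 genes (60.4%), against 37.6% of tested probes and 40.9% of the brightest 20%. It lay above for 8 (15.1%), against 33.4% and 39.2%.

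**Figure D4:**
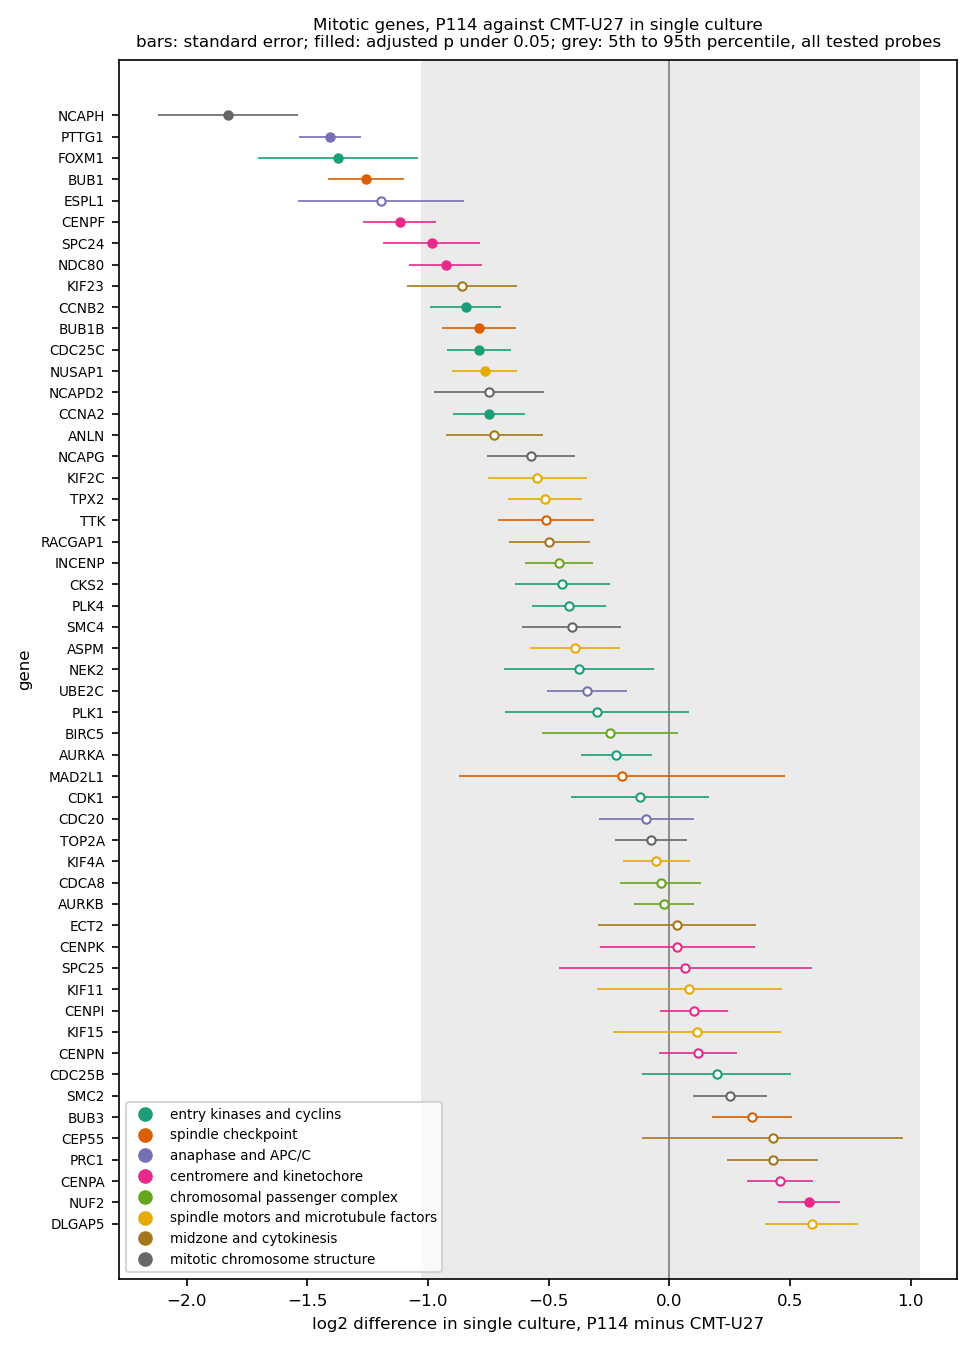
Log2 difference in single culture, P114 minus CMT-U27, for the 53 genes in order of size, with bars for the standard error, filled points for an adjusted p under 0.05, colours by role and a grey band from the 5th to the 95th percentile over all tested probes. NCAPH lies lowest at -1.83 and DLGAP5 highest at 0.59, and the filled points are 12 genes below 0 and NUF2 above it.

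Levels are log2 intensities after normalization and are compared only within a probe. NCAPH, a condensin I subunit, differed most. Its level was 10.38 and 10.34 in P114 and 12.14 and 12.24 in CMT-U27. The lines were separated by far more than their replicates, and P114 was lower by a log2 difference of -1.83 ± 0.29 (SE; limma adjusted p = 0.0132), a 3.55-fold difference. A second NCAPH probe, which overlaps the first, gave -1.52 ± 0.26 (adjusted p = 0.016). NCAPG and NCAPD2, from the same complex, were at -0.57 ± 0.18 and -0.75 ± 0.23 and did not pass (adjusted p = 0.0988 and 0.0877). SMC2 and SMC4 were at 0.25 ± 0.15 and -0.40 ± 0.20, and TOP2A at -0.08 ± 0.15, none of them past the threshold.

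Among the genes of mitotic entry 4 of 11 (36.4%) were lower in P114, against 8.23% of tested probes and 11.3% of the brightest 20%, and 0 were higher, against 6.97%. FOXM1 was at 9.58 and 9.80 in P114 and at 10.95 and 11.17 in CMT-U27, with a difference of -1.37 ± 0.33 (SE; limma adjusted p = 0.0467). Its printed probe gave -1.35 ± 0.22 (adjusted p = 0.0142), so both FOXM1 probes were lower in P114. CCNB2 was at 12.12 and 12.23 in P114 and at 13.05 and 12.99 in CMT-U27, with a difference of -0.84 ± 0.15 (adjusted p = 0.0178). Its other probes gave -1.28 ± 0.13 and, for the printed one, -0.97 ± 0.17 (adjusted p = 0.00292 and 0.0189), which makes it the gene with most probes past the threshold.

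CDC25C was at 7.58 and 7.70 in P114 and at 8.39 and 8.46 in CMT-U27. The levels did not overlap, and the difference was -0.79 ± 0.13 (SE; limma adjusted p = 0.0153). CCNA2 was at 10.41 and 10.55 in P114 and at 11.19 and 11.26 in CMT-U27, a difference of -0.75 ± 0.15 (adjusted p = 0.0275). CDK1 and PLK1 gave differences of -0.12 ± 0.29 and -0.30 ± 0.38, smaller than their errors. CKS2, PLK4 and AURKA lay between -0.22 and -0.44 at their brightest probe without passing. Over its 3 probes AURKA ranged from -0.22 to 0.12, so its direction is not settled. NEK2, a centrosome kinase, was at -0.37 ± 0.31 at its brightest probe, but its dimmer probes were at -0.86 ± 0.13 and -0.67 ± 0.16 (adjusted p = 0.0128 and 0.0469). The tested MKI67 probe was at 8.88 and 8.77 in P114 and at 9.06 and 9.15 in CMT-U27 and did not pass (difference -0.28, adjusted p = 0.53). The untested MKI67 probe was brighter, at 10.06 on P114 replicate 2 and at 10.85 and 10.89 in CMT-U27.

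In the spindle checkpoint, BUB1 was at 12.03 and 12.27 in P114 and at 13.49 and 13.33 in CMT-U27. The groups were well apart, with a difference of -1.26 ± 0.16 (SE; limma adjusted p = 0.00614), a 2.39-fold difference. BUB1B was at 10.60 and 10.80 in P114 and at 11.44 and 11.54 in CMT-U27, with a difference of -0.79 ± 0.15 (adjusted p = 0.0241). TTK was at -0.51 ± 0.20 and did not pass. BUB3 could not be given a direction: its brightest probe was at 0.34 ± 0.17, and its dimmer probes were at -0.68 ± 0.16 and -0.45 ± 0.14, of which the first passed (adjusted p = 0.0418).

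PTTG1 had the smallest adjusted p of the set. Its level was 13.62 and 13.72 in P114 and 15.12 and 15.02 in CMT-U27, so the lines lay apart by many times the gap between replicates. The difference was -1.40 ± 0.13 (SE; limma adjusted p = 0.00232), a 2.65-fold difference. ESPL1, the protease that securin inhibits, was at 9.05 and 9.28 in P114 and at 10.29 and 10.42 in CMT-U27. Its difference of -1.19 ± 0.34 did not pass (adjusted p = 0.0763), although the levels of the lines did not overlap. UBE2C was at -0.34 ± 0.17 and CDC20 at -0.09 ± 0.20.

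**Figure D5:**
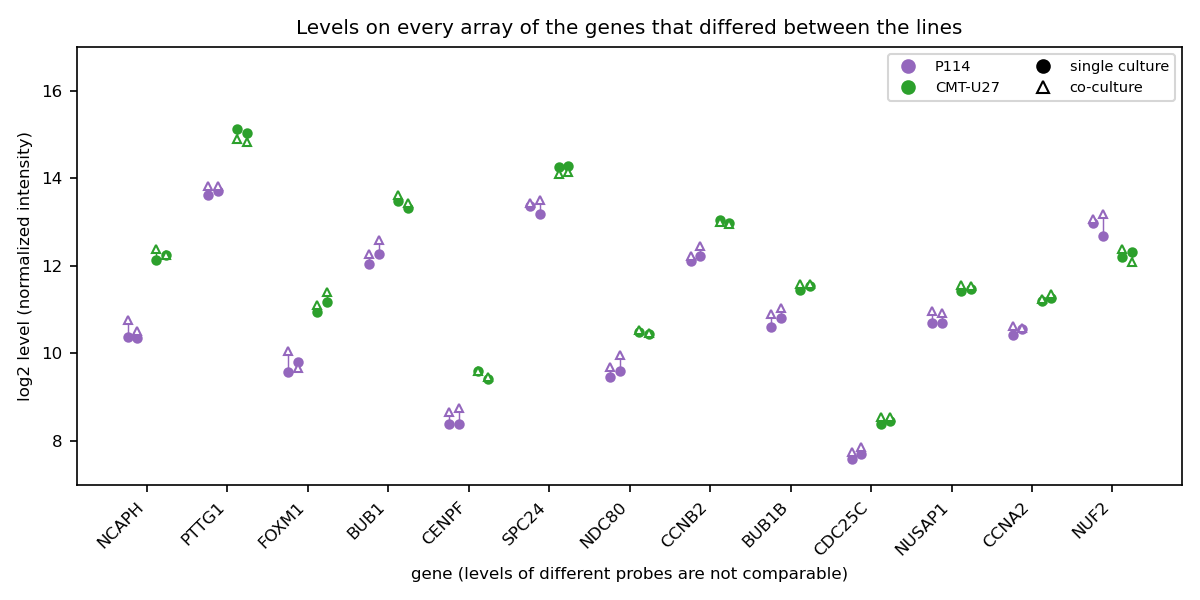
Log2 level on every array of the 13 genes that passed between the lines, P114 in purple and CMT-U27 in green, filled circles for single culture and open triangles for co-culture of the same array. Purple lies below green in both cultures for the 12 genes from NCAPH to CCNA2 and above green in both cultures for NUF2.

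The kinetochore genes split. CENPF was at 8.38 and 8.38 in P114 and at 9.59 and 9.40 in CMT-U27, a difference of -1.12 ± 0.15 (SE; limma adjusted p = 0.00805). Its second probe gave -0.25 ± 0.16 (adjusted p = 0.374), so the probes differ in size while sharing the sign. SPC24 was at 13.36 and 13.19 in P114 and at 14.25 and 14.27 in CMT-U27, a difference of -0.98 ± 0.20 (adjusted p = 0.0281). NDC80 was at 9.47 and 9.61 in P114 and at 10.49 and 10.44 in CMT-U27, a difference of -0.93 ± 0.15 (adjusted p = 0.0143).

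Their partner NUF2 went the other way. It was at 12.98 and 12.68 in P114 and at 12.21 and 12.31 in CMT-U27, a difference of 0.58 ± 0.13 (SE; limma adjusted p = 0.036). Its dimmer probes gave 0.63 ± 0.16 and 0.17 ± 0.14 and did not pass (adjusted p = 0.055 and 0.498). SPC25, the remaining subunit, was at 0.07 ± 0.52, an error too wide for a direction. CENPA was higher in P114 without passing, at 9.22 and 9.13 against 8.65 and 8.78 (difference 0.46 ± 0.14, adjusted p = 0.0808). CENPI, CENPK and CENPN lay between 0.03 and 0.12.

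Of the spindle factors, NUSAP1 was at 10.68 and 10.70 in P114 and at 11.44 and 11.47 in CMT-U27, a difference of -0.76 ± 0.13 (SE; limma adjusted p = 0.0175). A dimmer NUSAP1 probe gave -0.20 ± 0.17 (adjusted p = 0.505). DLGAP5, a microtubule-bundling protein of the kinetochore fibres, had the highest estimate of the set, 0.59 ± 0.19, and did not pass (adjusted p = 0.105). No gene of cytokinesis or of the passenger complex passed. At the brightest probes the range in cytokinesis was -0.86 ± 0.23 for KIF23 to 0.43 ± 0.19 for PRC1. In the passenger complex it was -0.46 ± 0.14 for INCENP to -0.02 ± 0.12 for AURKB. The second AURKB probe lay below that range, at -0.55, and did not pass. The second probes of PRC1 and INCENP had the opposite sign, at -0.03 ± 0.38 and 0.05 ± 0.27, so neither gene has a settled direction.

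For the 19 genes with several tested probes, all probes shared the sign in 11 genes between the lines, in 16 for the P114 ratio and in 14 for the CMT-U27 ratio. The 53 genes were brighter than most of the array, with a median log2 brightness of 10.63 against 8.20, and 32 of them were among the brightest 20% of tested probes.

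Other cell cycle genes were counted in the same comparison, against 8.23% of all tested probes lower and 6.97% higher. Of 23 further kinetochore and centromere genes 7 were lower in P114 (30.4%) and 1 higher (4.35%), led by SKA1 at -1.82, a microtubule-binding kinetochore protein, and OIP5 at -1.60, which loads CENPA (limma adjusted p = 0.00176 and 0.00255). Of 33 DNA replication genes 4 (12.1%) were lower and 1 (3.03%) higher, which is near the 11.3% of the brightest 20% of probes for the lower side, with CCNE2 at -1.58 and CCNE1 at 0.87 (adjusted p = 0.00712 and 0.0291). Of 32 further spindle genes 3 (9.38%), MELK, TRIP13 and SPAG5, were lower, again near the background, and 0 higher. Of 13 cohesin and condensin II genes 2 (15.4%) were lower and 1 (7.69%) higher, and of 15 further APC/C genes 2 (13.3%), CDC26 and FBXO5, were higher and 0 lower. Of 9 cell cycle arrest genes 1 (11.1%) passed: CDKN1A, an inhibitor of cyclin-dependent kinases, was higher in P114 by 4.20 (adjusted p = 0.000183).

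The sort and epithelial markers separated the lines as well. Of 8 such genes 6 were lower in P114, with EPCAM at -2.66, and CD44 was higher at 1.78 (limma adjusted p = 0.000742 and 0.00158). Their median level in CMT-U27 single culture was 12.68 and 12.67, above that in P114. The part of these markers, and of scan, in the differences of the mitotic genes was not tested.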

How the data were processed

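Each deposited scanner file held the red and green intensity of every spot on 1 array, with local background, made with Agilent Feature Extraction 10.10.1.1 on a CanFam3.1 probe design, per the file headers (10.7.3.1 per the submitters' processing notes). The deposited log10 ratio of each spot, red over green, was background-subtracted and dye-normalized by that software, per the file headers, and equals the series value table. The labels' protocol names a miRNA labelling kit. The direction of each ratio was taken from the dye labels.

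Here mean intensities were corrected with normexp (offset 50), normalized by loess with control spots at weight 0, averaged per probe and turned to co-culture over single culture (limma 3.58.1, R 4.3.3). Probes had to exceed background clearly, by the scanner's own call, in both replicates of some line and culture, which left 28692 after marked spots. The ratio fit held a coefficient per line and a dye term. Lines were compared with lmscFit after Aquantile (intraspot correlation 0.936). p-values were adjusted by Benjamini-Hochberg over all tested probes at 0.05. Both fits were tested on simulated data with planted changes larger than any loess co-culture ratio of the set. The simulation held no effect of scan, so it does not show how the fits behave on these arrays. The number of arrays limits the precision. Genes named are the members, in full where they passed or had an unadjusted p under 0.05, and others by role. The members and lists were chosen with earlier results of these data known.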

Additional observations from a re-analysis of the deposited data

Results flagged for a closer look

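In the set 3 genes (5.66%) lay on opposite sides of 0 in the lines, on every array, at their brightest probe. Of all tested probes 2.96% were above 0 on both P114 arrays and below 0 on both CMT-U27 arrays. For CCNB2 the mean CMT-U27 ratio of its 3 probes ranged from -0.04 to 0.05, so its sign there depends on the probe. As CMT-U27 minus P114 the difference of the log2 ratio was -0.3666 for PTTG1, -0.3307 for SPC24 and -0.1975 for CCNB2, each above 0 on both P114 arrays and below 0 on both CMT-U27 arrays. The test of the difference itself gave a limma adjusted p of 1 for each, so none passed. With median centring in place of loess all 3 differences were above 0. All 3 genes were also lower in P114 than in CMT-U27 in single culture. Both comparisons use the same single-culture channels, so the second is not separate support.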

How the results depend on the processing

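Median centring in place of loess moved the ratios of all probes and, further, those of the set, and the cause was not tested. Under it 5 probes passed in P114 (median of the set 0.532), 17343 probes and 52 members in CMT-U27 (median 1.3955), 16518 probes and 51 members for the mean of both lines (median 0.958), and 12448 probes and 44 members for the difference between the lines (median 0.813). Between the lines in single culture 6 members passed and the median was 0.0815. The sign of the co-culture value changed in 12 members in CMT-U27, in 4 for the mean of both lines and in 41 for the difference. Of these, only the members that also passed the adjusted test under median centring are listed next. The direction of these ratios turned in CMT-U27, with log2 values of PTTG1 1.383, SPC24 1.4028, AURKA 1.4835, CDCA8 1.4684, CKS2 1.4387, CDK1 1.3955, NUF2 1.3919, CCNB2 1.4242, MAD2L1 1.203, CENPK 0.688 and SMC2 0.4616. For the mean of both lines it turned for PTTG1 0.9893 and MAD2L1 0.7606. For CMT-U27 minus P114 it turned for PTTG1 0.7874, SPC24 0.7803, AURKA 0.8515, CDCA8 0.9397, CKS2 0.9664, BUB1 0.9121, CDK1 0.8187, KIF23 0.8351, NUF2 0.6631, CCNB2 0.8478, TOP2A 0.7965, INCENP 0.9981, AURKB 0.766, PRC1 0.8778, SPC25 0.813, NCAPH 0.8775, NCAPD2 0.7238, KIF15 0.8681, BUB1B 0.7907, NUSAP1 0.7928, CCNA2 0.8925, KIF11 0.8217, MAD2L1 0.8849, NCAPG 0.7573, ASPM 0.7791, CDC20 0.8116, PLK1 0.7195, DLGAP5 0.6843, NDC80 0.6678, TPX2 0.8809, SMC4 0.8564, PLK4 0.7609, KIF2C 0.7216 and CDC25C 0.6529.

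Without background correction the medians were 0.1344 in P114, 0.0207 in CMT-U27, 0.0654 for the mean and -0.1033 for the difference, and 12 probes passed in CMT-U27 and 1 for the difference. With the deposited log ratio they were 0.1481, 0.0263, 0.0742 and -0.1369. Asking for signal well above background in every channel gave 1 probe in CMT-U27. Between the lines, the scanner's processed signals gave 2364 probes and 4 members, and no dye term 9385 probes and 26 members, against 4361 and 13. Where not stated, the cause was not tested.

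Leaving out 1 array at a time, without the dye term, gave 0 to 64 probes in P114 (median 0.1520 to 0.1758, and 0.1738 without P114 replicate 1), 0 to 17 in CMT-U27 (0.0462 to 0.0863), 0 to 61 for the mean (0.0971 to 0.1171) and 0 to 61 for the difference (-0.1174 to -0.0371), with 0 members in each. Without CMT-U27 replicate 1, 8 probes passed for the mean and 8 for the difference, and without CMT-U27 replicate 2 the median difference was -0.1031. Between the lines it gave 4100 to 13716 probes, 12 to 31 members and medians of -0.4062 to -0.2691 (11365 probes and 24 members without P114 replicate 1), with the intraspot correlation of all 4 arrays, since 3 arrays gave none. An arm left with 1 array is assumed to vary like the others. CENPF passed between the lines in 14 of 14 settings, PTTG1, BUB1, CDC25C and NCAPH in 13, and NUF2 in 7. Each array holds both cultures of a line, so the co-culture ratios are paired within arrays. No further pairing between arrays was possible because replicate numbers follow record order. Signal over background limits the dimmest probes, and 2 arrays a line limit every ratio.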
